A study of Mus musculus with 68 samples.

Results

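The genes of respiratory complex I and its assembly were taken as every gene whose symbol started with Nduf, which gave 44 of the 36172 genes measured. They comprised 7 core subunits, 9 accessory subunits of the peripheral arm, 19 of the membrane arm, the acyl carrier protein Ndufab1, Ndufa4 with its relative Ndufa4l2, and 6 assembly factors. Single dopamine neurons of the mouse ventral tegmental area had been recorded by patch clamp in brain slices, and the contents of each nucleated patch were then drawn into the pipette and sequenced (Patch-seq). The table held 68 neurons, 33 from 3xTg and 35 from WT mice, all 12 months old and of both sexes. 3xTg mice were homozygous for human transgenes that included APP_Swe and Tau_P301L, and WT mice were bred as their own line of matching mixed strain (C57BL/6;129×1/SvJ;129S1/Sv) and lacked the transgenes. Because the 2 lines were bred separately, genotype and line cannot be told apart. The labels gave no mouse for any cell, so each genotype counted as 1 sample. No p-value or standard error was therefore calculated, and SDs describe the spread over cells, not over animals.

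Complex I is the entry point of electrons from NADH into the mitochondrial respiratory chain, and it pumps protons as it passes them to ubiquinone. Its peripheral arm carries the flavin and iron-sulfur clusters, its membrane arm holds the proton channels, and many accessory subunits surround this core. Assembly factors help to build the enzyme and are not part of the finished complex. Dopamine neurons are known for their high energy demand and for their sensitivity to complex I inhibitors. The mitochondrially encoded subunits of the complex, Ndufb1 and 2 assembly factors (Ndufaf7 and Ndufaf8) were not analysed here.

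Total counts per cell ranged from 492505 to 1678624, and between 3695 and 10426 genes had a count of at least 1. All 4 dopamine neuron markers had a count in every cell of both genotypes. Of the 4 other-cell markers used in the study's selection, 5 3xTg and 5 WT cells held a count of at least 1. The summed level of 7 microglial markers ranged from 0 to 5215 CPM (counts of a gene per 1000000 counts of the cell) over 3xTg cells and from 0 to 2870 over WT cells, with Tmem119 at 0 in 3xTg. For 5 oligodendrocyte markers the ranges were 5.66 to 583 in 3xTg and 7.94 to 2540 in WT, with Mog at 0 in WT, and for 5 astrocyte markers 0 to 272 and 0 to 2410, with Aldh1l1 at 0 in both. The 4 endothelial markers ranged from 0 to 153 and from 0 to 47.4, with Cldn5 and Pecam1 at 0 in both genotypes, and the 5 pericyte markers from 0 to 67.7 and from 0 to 74.2, with Kcnj8 at 0 in 3xTg. Summed over cells, microglial markers were at 151 CPM in 3xTg and 433 in WT, oligodendrocyte markers at 94.1 and 292, astrocyte markers at 14 and 164, endothelial markers at 16.7 and 1.62, and pericyte markers at 11.4 and 14.5. Beyond leaving out cells that held Aldh1l1, P2ry12, Pvalb or Tmem119, the part of these markers in the results was not tested. The labels number the cells, and the numbers fell into runs that alternated between genotypes: WT 1 to 22 (17 cells), 3xTg 24 to 55 (21 cells), WT 57 to 74 (15 cells), 3xTg 76 to 92 (12 cells) and WT 94 to 96 (3 cells). What a run stood for was not given in the sources used here.

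RefSeq promoter sequences (GRCm38.p6, 250 bases before to 50 bases after the start site) were found for 38 of the 44 genes, 40 sequences in all. The binding motif of NRF-1, a transcription factor known for driving genes of the respiratory chain, was searched on both strands as GCGCANGCG. It was present in 11 of the 40 sequences (27.5%, 10 genes), compared to 6.25% of all 32851 promoters. A motif of YY1, AAGATGGCG, was present in 5 sequences (12.5%) compared to 1.4% of all promoters, and those genes were Ndufa9, Ndufc1, Ndufs4, Ndufs6 and Ndufs7. An ETS motif, CCGGAAG, was present in 5 sequences (12.5%) and in 8.86% of all promoters, the GC box GGGCGG in 20 (50%) and in 35.7%, and TATAAA in 5 (12.5%) and in 13.6%. These 5 motifs were listed after their shares had been seen. A match is a description of the letters, not a binding site. Below are the Ndufs6 promoter, which alone held both the NRF-1 and the YY1 motif, and the promoters of Ndufb4, Ndufa6 and Ndufs5, which held the NRF-1 motif and differed between genotypes by over 0.32 on the log2 scale. Capitals mark these 2 motifs, each sequence reads 5′ to 3′ along the gene's strand, and the start site is base 251.
Ndufs6 promoter, chr13:73328433-73328732, minus strand: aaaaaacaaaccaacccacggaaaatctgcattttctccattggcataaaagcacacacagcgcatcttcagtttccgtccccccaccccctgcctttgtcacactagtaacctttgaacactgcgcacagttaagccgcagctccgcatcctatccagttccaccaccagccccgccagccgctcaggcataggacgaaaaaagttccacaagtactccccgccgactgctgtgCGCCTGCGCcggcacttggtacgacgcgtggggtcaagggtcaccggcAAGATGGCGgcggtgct
Ndufb4 promoter, chr16:37654319-37654618, minus strand: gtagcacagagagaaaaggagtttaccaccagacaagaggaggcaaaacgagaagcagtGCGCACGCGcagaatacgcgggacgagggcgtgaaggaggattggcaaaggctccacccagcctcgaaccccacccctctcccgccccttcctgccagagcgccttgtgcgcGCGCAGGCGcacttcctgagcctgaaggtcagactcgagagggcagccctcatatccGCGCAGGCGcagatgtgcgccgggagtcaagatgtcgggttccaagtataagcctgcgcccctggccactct
Ndufa6 promoter, chr15:82354242-82354541, minus strand: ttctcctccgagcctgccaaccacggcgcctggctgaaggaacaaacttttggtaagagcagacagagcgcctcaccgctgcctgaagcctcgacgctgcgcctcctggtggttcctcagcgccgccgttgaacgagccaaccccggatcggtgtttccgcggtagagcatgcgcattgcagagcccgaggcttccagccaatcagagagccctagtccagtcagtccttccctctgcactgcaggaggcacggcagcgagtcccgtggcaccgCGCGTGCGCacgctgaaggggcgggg
Ndufs5 promoter, chr4:123718137-123718436, minus strand: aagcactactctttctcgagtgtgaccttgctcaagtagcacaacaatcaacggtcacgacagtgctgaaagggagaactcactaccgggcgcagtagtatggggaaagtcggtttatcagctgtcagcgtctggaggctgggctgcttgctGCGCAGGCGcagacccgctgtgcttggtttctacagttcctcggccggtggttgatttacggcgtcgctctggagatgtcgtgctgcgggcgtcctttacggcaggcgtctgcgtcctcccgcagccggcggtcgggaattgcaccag
Ndufb4 held 3 NRF-1 matches, starting 191, 79 and 22 bases before the start site. Ndufa6, Ndufs5 and Ndufs6 held 1 each, and the YY1 match of Ndufs6 began 33 bases after the start site. Of these 3 genes beside Ndufs6, Ndufb4 was higher in 3xTg by summed counts and Ndufa6 and Ndufs5 were lower. By the mean over cells Ndufs5 was instead 0.36 higher in 3xTg. Leaving out WT cell 59 for Ndufs5 or WT cell 20 for Ndufa6 brought the summed ratio within 0.32.

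Complex I transcripts took up 0.919% of all counts in 3xTg and 0.867% in WT. Summed over cells, this was 9186 CPM in 3xTg (exact Poisson 95% interval 9155 to 9217) and 8673 CPM in WT (8642 to 8705), a log2 ratio of 0.08. The intervals cover counting error only. Without the cells that held Aldh1l1, P2ry12, Pvalb or Tmem119, the ratio was 0.048. Single neurons differed far more than the genotypes did. WT cells ranged from 2601 CPM to 17680 CPM with a median of 7802, and 3xTg cells from 3647 to 16233 with a median of 9152, so that the genotypes overlapped over most of their range. Leaving out 3xTg cell 24 changed the log2 ratio to 0.05, and leaving out WT cell 20, which had the highest WT value, changed it to 0.14. The median by run was 9831 CPM in WT 1 to 22, 8692 in 3xTg 24 to 55, 7389 in WT 57 to 74, 9629 in 3xTg 76 to 92 and 9167 in the 3 WT cells 94 to 96. By these medians, the first WT run lay above both 3xTg runs and the second WT run below both.

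**Figure D1:**
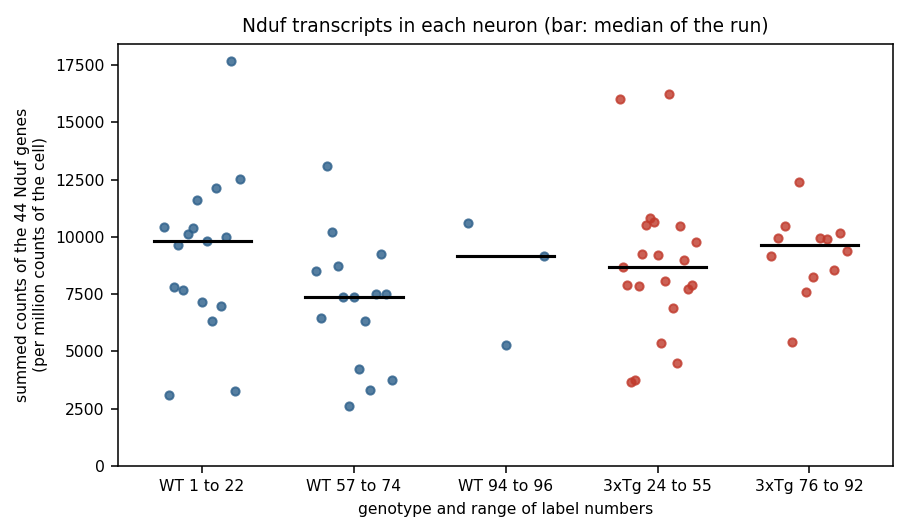
Summed CPM of the 44 Nduf genes in each neuron (y axis) by genotype and range of label numbers (x axis), with a bar at the median of each run. WT cells spread from 2601 to 17680 CPM and 3xTg cells from 3647 to 16233, and the WT run medians (9831, 7389 and 9167) lie on both sides of the 3xTg medians (8692 and 9629).

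Of the 44 genes, 38 were expressed, meaning that 80% or more of the cells in 1 of the genotypes reached a normalized count of 1. The other 6 were Ndufa4l2 and 5 of the 6 assembly factors. Ndufaf3 and Ndufs1 passed this filter through 3xTg cells alone, so that the filter itself favoured a higher value in 3xTg for both, for Ndufaf3 by either measure below and for Ndufs1 by the mean over cells. A gene was counted as higher or lower where the difference between genotypes was at least 0.32 on the log2 scale, in either direction. By summed counts, 6 of the 38 were higher in 3xTg, compared to 23.2% of all 3988 expressed genes, and 2 were lower, compared to 27.7%. The 6 were Ndufaf3, Ndufb4, Ndufv2, Ndufb7, Ndufc2 and Ndufs4, and the 2 were Ndufs5 and Ndufa6. The count of 6 rested on single cells, with 3 genes higher without 3xTg cell 24 and 9 without WT cell 20. The median log2 ratio was 0.12 for complex I and -0.03 for all expressed genes, and 24 of the 38 were above 0, compared to 47.9% of all genes. Without the cells that held 1 of the 4 other-cell markers of the study's selection, the complex I median was 0.058. When log2(normalized count + 1) was instead averaged over the cells, 31 of the 38 were higher in 3xTg, where 56% of all genes were, and 1 was lower, where 13.7% of all genes were. On this scale the median difference was 0.75 for complex I and 0.47 for all expressed genes. Relative to the median of all genes, the complex I median was thus 0.28 higher, and this excess was 0.05 in the first pair of runs (3xTg 24 to 55 with WT 1 to 22) and 0.53 in the second (3xTg 76 to 92 with WT 57 to 74). Cells at 0 enter the mean of logs, and over cells with a count alone the median difference was 0.35. For 35 of the 44 genes a larger share of 3xTg than of WT cells had a count (79.5%), compared to 67.6% of all genes with a count. More genes were also detected in 3xTg, at a median of 8511 per cell compared to 7476 in WT. The ranges of the genotypes overlapped for all 44 genes, as they did for all 3988 expressed genes.

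**Figure D2:**
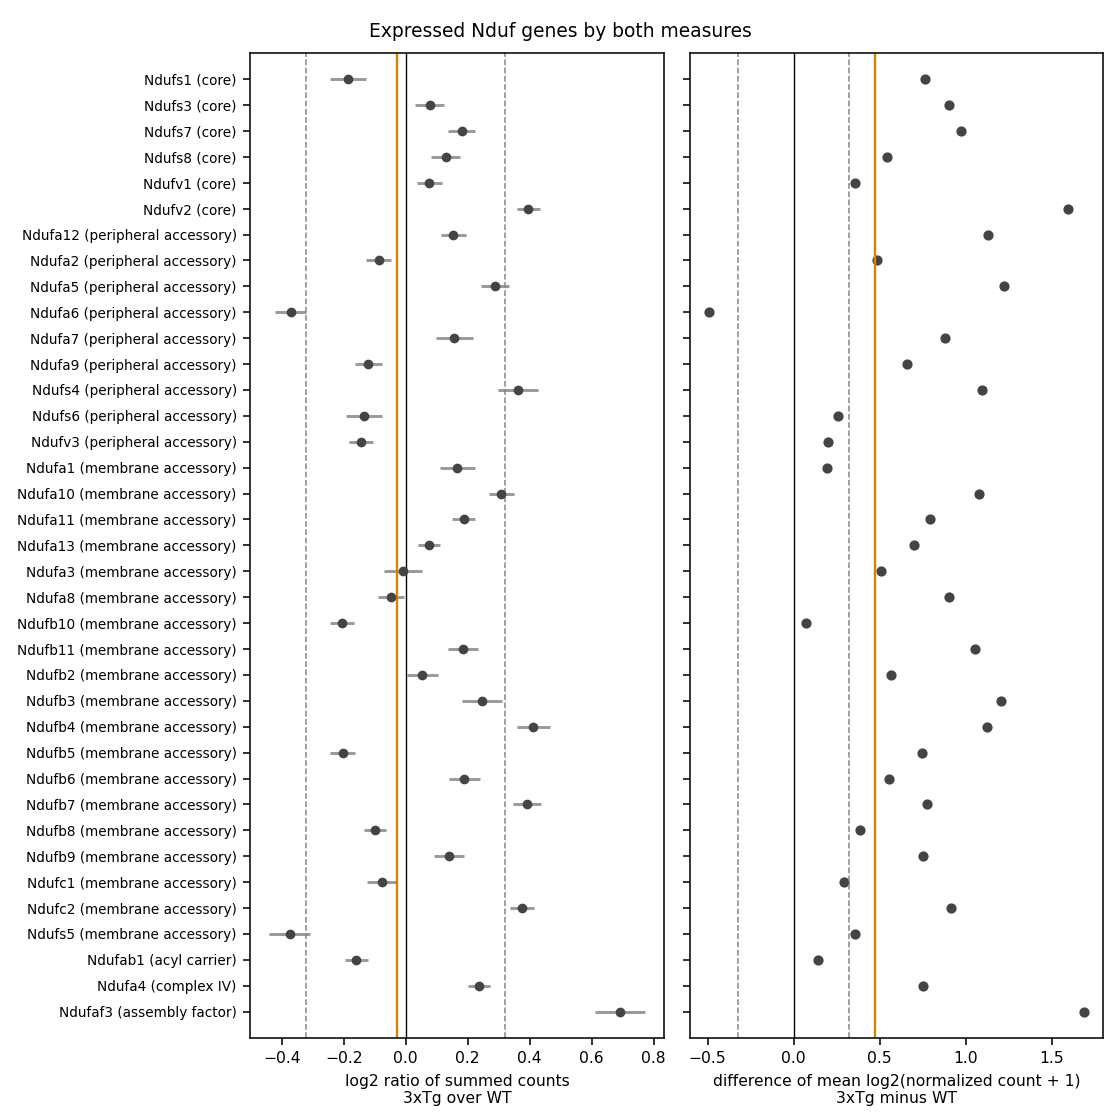
The expressed Nduf genes (37 of the 38 drawn) with their roles, by log2 ratio of summed counts (left, bars are exact 95% counting intervals) and by difference of mean log2(normalized count + 1) (right), both as 3xTg relative to WT. Dashed lines mark 0.32 in either direction and the orange line the median of all expressed genes, at -0.03 on the left and 0.47 on the right. Of the genes drawn, 8 lie outside the dashed lines on the left and 31 on the right.

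Among the 7 core subunits, Ndufv2 was the one past 0.32 by summed counts. Ndufv2 (chr17:66078795-66101491, minus strand) encodes an iron-sulfur subunit of the NADH-binding part. Its level ranged from 64.8 CPM over a median of 345 to 761 in 3xTg cells and from 0 over 210 to 905 in WT cells. Every 3xTg cell had a count, whereas 4 WT cells were at 0, and the highest WT cell exceeded every 3xTg cell. Summed, Ndufv2 reached 376 CPM in 3xTg, compared to 285 in WT, for a log2 ratio of 0.40 (counting interval 0.36 to 0.43). In the first pair of runs, 3xTg 24 to 55 with WT 1 to 22, the ratio stood at 0.42. In the second pair, 3xTg 76 to 92 with WT 57 to 74, it stood at 0.29. Its mean log2(normalized count + 1) was 8.29 ± 1.24 (SD over 33 cells) in 3xTg and 6.70 ± 2.96 (SD over 35 cells) in WT.

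The other core subunits had summed log2 ratios between -0.19 and 0.18. Ndufv1, which binds NADH and the flavin, ranged from 0 over a median of 236 to 896 CPM in 3xTg and from 0 over 215 to 930 in WT. The ratio was 0.32 in the first pair of runs and 0.24 in the second. Its sign rested on single cells, since the ratio of 0.08 became -0.01 without 3xTg cell 50 and 0.21 without WT cell 94. In the WT runs it was 226 CPM in WT 1 to 22, 246 in WT 57 to 74 and 705 in the 3 cells of WT 94 to 96, which are in neither pair. Ndufs7, which holds the last iron-sulfur cluster before ubiquinone, ranged from 0 over a median of 232 to 619 CPM in 3xTg and from 0 over 236 to 569 in WT. The first pair of runs gave 0.01 and the second 0.59. Ndufs3, an early-assembled core subunit, ranged from 0 over 208 to 518 CPM in 3xTg and from 0 over 193 to 945 in WT. Its ratio changed sign between the runs, with -0.27 in the first pair and 0.43 in the second. Ndufs8, an iron-sulfur subunit, ranged from 0 over 197 to 770 CPM in 3xTg and from 0 over 190 to 442 in WT, with ratios of -0.07 and 0.31. Ndufs1, the largest iron-sulfur subunit, was the least detected of the core, since 28 of 33 3xTg and 26 of 35 WT neurons held any. It ranged from 0 over 73.3 to 419 CPM in 3xTg and from 0 over 82.4 to 721 in WT, with ratios of -0.51 in the first pair of runs and -0.02 in the second. Summed, it was 132 CPM in 3xTg, compared to 150 in WT, for a log2 ratio of -0.19, which became -0.01 without WT cell 6.

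Of the 9 accessory subunits of the peripheral arm, Ndufs4 was higher and Ndufa6 lower past that limit, and the median log2 ratio was -0.09. Ndufs4, whose loss in mice causes a Leigh-like brain disease, ranged from 0 over a median of 115 to 291 CPM in 3xTg and from 0 over 98.8 to 272 in WT. The genotypes overlapped almost fully. Its summed level was 125 CPM in 3xTg, compared to 96.9 in WT, for a log2 ratio of 0.36, with 0.38 in the first pair of runs and 0.33 in the second. Leaving out any 1 of 8 cells ended this call (3xTg cells 24, 38 and 81 and WT cells 9, 14, 18, 72 and 73), and without 3xTg cell 81 the ratio was 0.30. Ndufa6, a subunit that binds the acyl carrier protein, was the only expressed gene of the 38 below 0 by both measures. It ranged from 0 over 139 to 484 CPM in 3xTg and from 0 over 170 to 808 in WT, and 3 3xTg cells and 1 WT cell were at 0. Summed, it was 159 CPM in 3xTg, compared to 205 in WT, for a log2 ratio of -0.37 with -0.60 in the first pair of runs and 0.05 in the second. Without WT cell 20 the ratio was -0.24, and without WT cell 10 or WT cell 96 it was -0.31, each of which ended the call. Ndufs6, a zinc-binding subunit, differed most between the first and second WT runs among the 38 expressed genes. It was 191 CPM in WT 1 to 22 and 86.7 in WT 57 to 74, and 121 and 136 CPM in the 3xTg runs. The summed log2 ratios of the remaining peripheral subunits lay between -0.14 (Ndufv3) and 0.29 (Ndufa5).

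Of the 19 accessory subunits of the membrane arm, Ndufb4, Ndufb7 and Ndufc2 were past 0.32 upward and Ndufs5 downward. Ndufb4 ranged from 24 over a median of 185 to 379 CPM in 3xTg and from 0 over 126 to 412 in WT, with a summed log2 ratio of 0.41, which was 0.51 in the first pair of runs and 0.25 in the second. Ndufb7, which lies on the intermembrane side, ranged from 0 over 252 to 711 CPM in 3xTg and from 0 over 205 to 631 in WT, with a ratio of 0.39 that became 0.31 without 3xTg cell 24. Its ratio was 0.25 in the first pair of runs and 0.68 in the second. Ndufc2 ranged from 0 over 313 to 882 CPM in 3xTg and from 0 over 213 to 687 in WT, with a ratio of 0.37 that became 0.30 without the same cell. Cell 24 had the fewest genes with a count among 3xTg cells (3695) and the highest Ndufb7 and Ndufc2 of its genotype. Ndufs5, also on the intermembrane side, ranged from 13.8 over 81.1 to 285 CPM in 3xTg and from 0 over 108 to 307 in WT. Its summed log2 ratio was -0.37, or -0.29 without WT cell 59, which no longer passed the limit, while its mean over cells was 0.36 higher in 3xTg, and 3 WT cells but no 3xTg cell were at 0. The most abundant of the arm by summed CPM were Ndufb8, Ndufa13 and Ndufa11. Ndufb8 ranged from 0 over 333 to 1338 CPM in 3xTg and from 0 over 373 to 1146.5 in WT, with ratios of -0.15 and -0.08 in the first and second pairs of runs. Ndufa13 ranged from 127 over 377 to 804 CPM in 3xTg and from 2.41 over 309 to 813 in WT, with ratios of -0.07 and 0.34. Ndufa11 ranged from 137 over 310 to 770 CPM in 3xTg and from 0 over 254 to 844 in WT, with ratios of -0.13 and 0.68. The genotypes overlapped for all 3. The ratios of the 15 other membrane arm subunits lay between -0.20 (Ndufb10) and 0.31 (Ndufa10). The ratio of Ndufa1 was 0.17 and became -0.07 without 3xTg cell 24.

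Ndufab1, the mitochondrial acyl carrier protein, was 292 CPM in 3xTg and 326 in WT, and its log2 ratio was -0.55 in the first pair of runs and 0.43 in the second. Ndufa4, named for complex I and since assigned to complex IV, ranged from 22.7 over a median of 379 to 1578 CPM in 3xTg and from 0 over 335 to 718 in WT. Its highest value was again in 3xTg cell 24, and its ratio of 0.24 became 0.09 without that cell. The ratio was 0.23 in the first pair of runs and 0.18 in the second. Ndufa4l2, a relative of Ndufa4, was almost undetected. WT cell 74 held an estimated count of under 1, and 0 of 33 3xTg neurons and 0 of 35 in WT reached a count of 1. By the limit of 3 counts for a 0, this allows up to 9.09% and 8.57% of cells with a count, and the exact Clopper-Pearson 95% intervals reached 10.6% and 10.0%, both for counting error only.

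**Figure D3:**
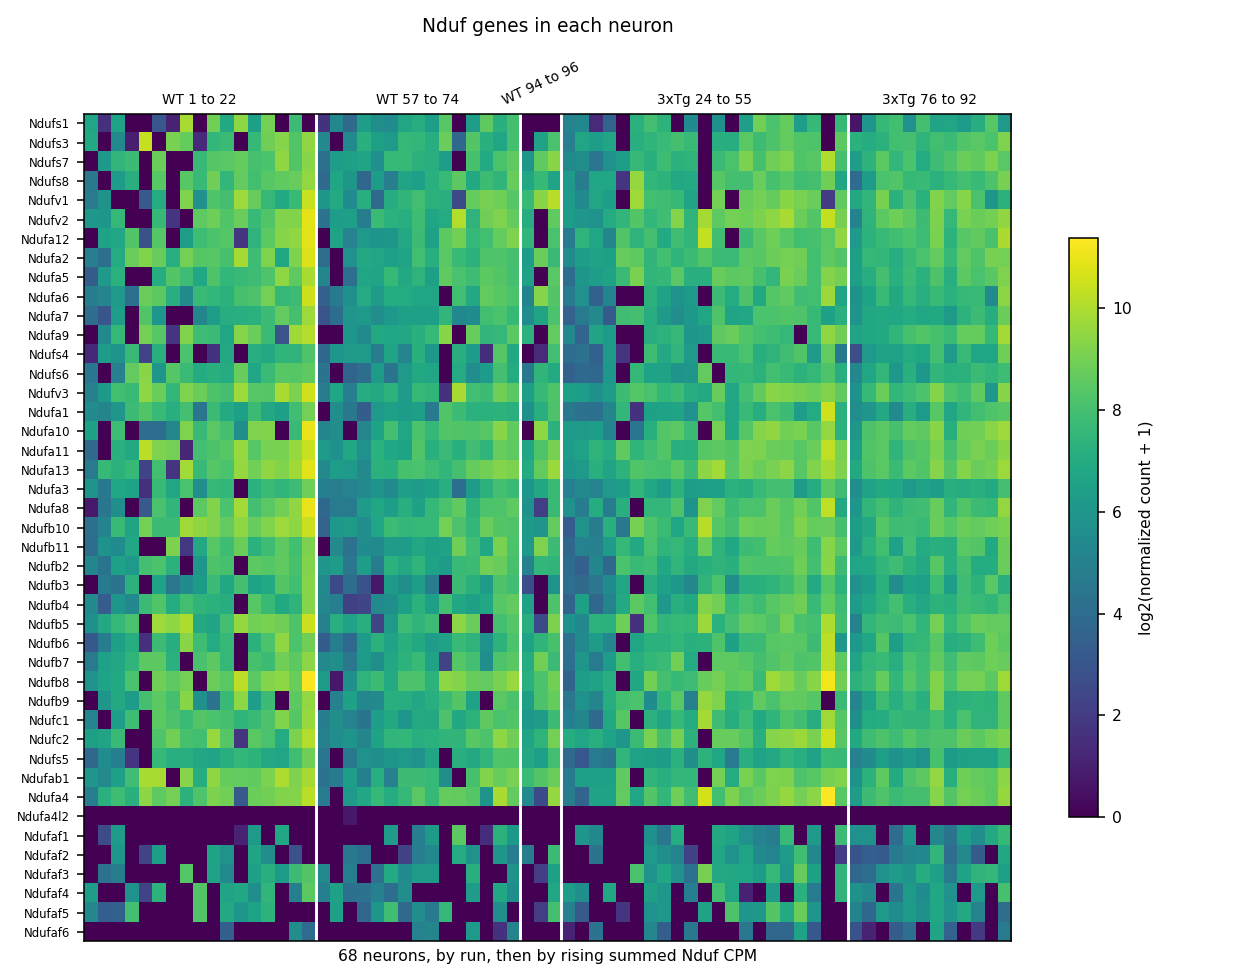
Level of 43 Nduf genes (rows, grouped by role) in each of the 68 neurons (columns, by run and then by rising summed level) as log2(normalized count + 1). Subunits are present in most cells with scattered zeros, the assembly factors at the bottom are at 0 in many cells, and Ndufa4l2 is at or near 0 in all.

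Assembly factors were less abundant than subunits. Per kilobase of the longest CCDS transcript in GENCODE, their median was 40.3 CPM compared to 234 for the 37 subunits including Ndufa4, 5.82-fold lower, and 7.03-fold lower with the shortest transcript. Ndufaf3, which works with Ndufaf4 on the ubiquinone-binding module, was the only one expressed, having passed the filter through 3xTg cells, and had the highest log2 ratio of the 38. Its level ranged from 0 over a median of 62.5 to 333 CPM in 3xTg and from 0 over 37.5 to 258 in WT. Summed, it was 94 CPM in 3xTg, compared to 58.2 in WT, for a log2 ratio of 0.69 (counting interval 0.61 to 0.77) with 0.61 in the first pair of runs and 0.66 in the second. A count was present in 27 of 33 3xTg cells (81.8%, exact Clopper-Pearson 95% interval 64.5 to 93) and in 21 of 35 WT cells (60%, 42.1 to 76.1). These intervals cover counting error only and do not compare the genotypes. Ndufaf4 was at 60.3 CPM in 3xTg and 62.7 in WT, with a count in 22 cells of each genotype. It ranged from 0 over 55.4 to 241 CPM in 3xTg and from 0 over 34.2 to 428 in WT, with ratios of -0.42 in the first pair of runs and 0.43 in the second.

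Ndufaf1, part of the assembly complex of the membrane arm, was found in 23 of 33 3xTg cells (69.7%, 51.3 to 84.4) and in 12 of 35 WT cells (34.3%, 19.1 to 52.2). Its level was 53.1 CPM in 3xTg and 29.9 in WT. By run, Ndufaf1 was 16.1 CPM in WT 1 to 22 and 50.9 in WT 57 to 74. It was 0 in the 3 cells of WT 94 to 96, and 55 and 50.3 in the 3xTg runs. WT cell 57 alone held 29.3% of the WT counts. The median cell of both WT 1 to 22 and WT 57 to 74 was at 0, beside 26.8 and 51.8 CPM in the 3xTg runs. Cells with a count were 5 of 17, 7 of 15 and 0 of 3 in the WT runs and 13 of 21 and 10 of 12 in the 3xTg runs. Ndufaf6, an early assembly factor, was at 3.57, 15 and 0 CPM in the 3 WT runs and at 12 and 11.9 in the 3xTg runs, and was found in 18 3xTg and 8 WT cells. Ndufaf2, which resembles the subunit Ndufa12, was found in 25 3xTg and 19 WT cells. It ranged from 0 over 30.6 to 175 CPM in 3xTg and from 0 over 4.96 to 178 in WT, with ratios of 0.48 and 0.27 in the first and second pairs of runs. Ndufaf5, which modifies Ndufs7, was found in 24 and 20 cells. It ranged from 0 over 57.2 to 327 CPM in 3xTg and from 0 over 17 to 421 in WT, with ratios of -0.03 and -0.07. Drawing 700471 counts from each neuron excluded 2 shallower 3xTg neurons and 5 of WT, and in the remainder Ndufaf1 was found in 23 3xTg and 10 WT cells and Ndufaf3 in 27 and 18. Detection was higher in 3xTg beyond these genes too. The median share of cells with a count was 71.2% in 3xTg and 55.7% in WT over the 6 assembly factors, and 42.4% and 31.4% over all 17940 genes with a count. The median gain per gene was 21.6 percentage points for the assembly factors, 3.38 for all genes with a count and 2.86 for all expressed genes, which were closer to full detection.

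**Figure D4:**
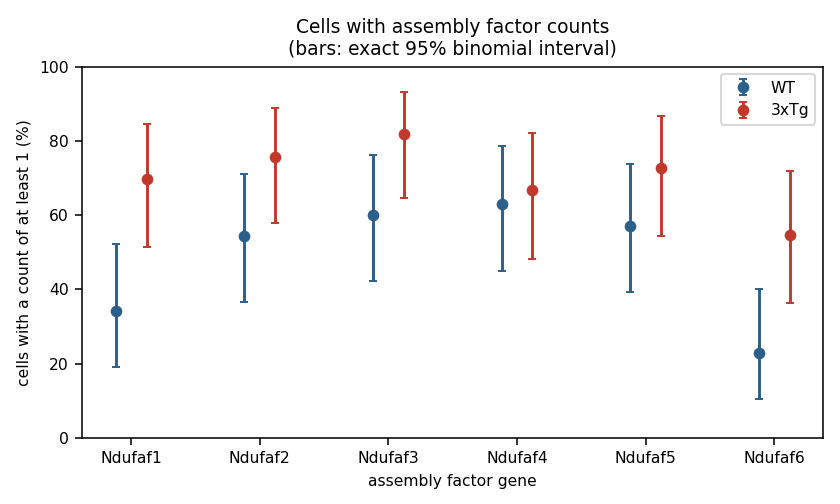
Share of cells with a count of at least 1 (y axis, %) for each Nduf assembly factor in 35 WT and 33 3xTg cells, with exact 95% binomial intervals that cover counting error only and not the spread between mice. The share is higher in 3xTg for all 6, from 34.3% to 69.7% for Ndufaf1 and from 62.9% to 66.7% for Ndufaf4.

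The difference between genotypes depended on the runs compared. Between the first runs, 6 of the 38 expressed genes were higher in 3xTg (35.4% of all genes) and 10 lower (21.3%), with a median log2 ratio of -0.05 compared to 0.12 for all genes. Between the second runs, 16 were higher (26.1%) and 1 lower (40.7%), with a median of 0.30 compared to -0.11. By the mean over cells, 23 were higher between the first runs (52.3% of all genes) and 8 lower (15.5%), and 38 were higher (58.2%) and 0 lower (24%) between the second. Within WT, the later run was higher than the first for 0 of the 38 (41.5%) and lower for 20 (25.7%), with a median of -0.33 compared to 0.14. Within 3xTg, 4 were higher in the later run (16.8%) and 1 lower (30.8%), with a median of 0.02 compared to -0.10. Complex I transcripts were thus lower in the second WT run than in the first, at 7555 CPM (7511 to 7600) and 9673 CPM (9626 to 9720), whereas the 3xTg runs were at 9088 and 9326. These comparisons share cells with one another. The first and second pairs of runs share none, and in both pairs 15 genes were above 0 (39.5%, compared to 27.2% of all genes) and 3 (Ndufb8, Ndufs1 and Ndufs5) below 0 (7.89%, compared to 24.3%). Another 19 were below 0 in the first and above 0 in the second (50%, compared to 17.2%). In both pairs, Ndufc2, Ndufs4 and Ndufaf3, the last of which passed the filter through 3xTg cells, were past 0.32 upward, 7.89% of the 38, while among all genes 405 of 3988 were. The first WT run also had the fewest genes with a count, at a median of 5233, compared to 8441 in the second WT run and 7648 and 9308 in the 3xTg runs. The part of depth in these values was not tested.

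**Figure D5:**
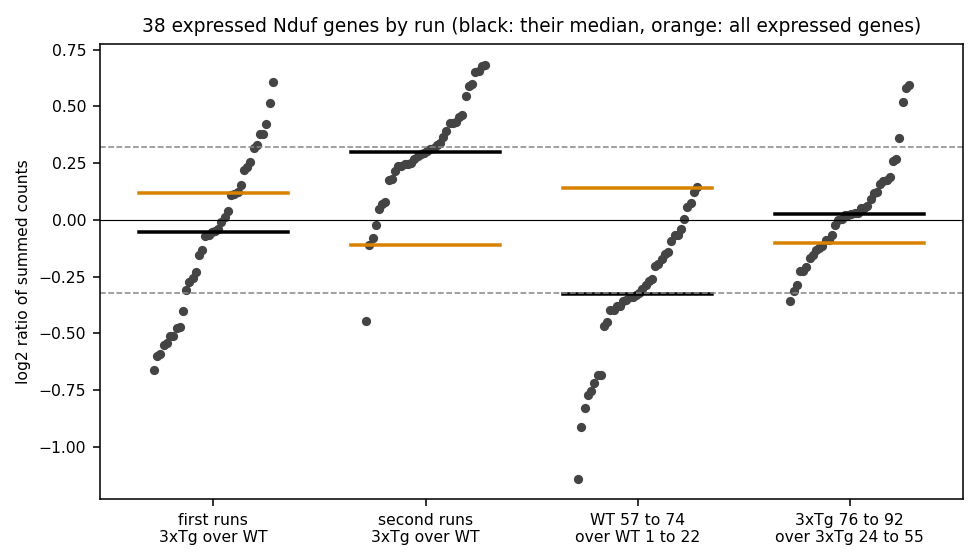
Log2 ratio of summed counts (y axis) of the 38 expressed Nduf genes in 4 comparisons of runs (x axis), each dot 1 gene, with black bars at their median and orange bars at the median of all expressed genes. The black bar lies below the orange bar between the first runs (-0.05 and 0.12) and within WT (-0.33 and 0.14), and above it between the second runs (0.30 and -0.11).

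Across cells, complex I genes varied together. The median Pearson r over pairs of the 38 expressed genes was 0.34 over 68 cells, compared to 0.08 over pairs of all expressed genes, and it was 0.44 within the 35 expressed genes of complexes III, IV and ATP synthase and 0.34 within the 79 of cytosolic ribosomal proteins. For complex I it was 0.40 in 3xTg and 0.30 in WT. In the first pair of runs it was 0.32 in WT 1 to 22 and 0.36 in 3xTg 24 to 55. In the second it was 0.46 in WT 57 to 74 and 0.72 in 3xTg 76 to 92. The 3xTg value was thus the higher in both pairs, although WT 57 to 74 lay above 3xTg 24 to 55. All gene values of a cell came from the same library, and depth differed between cells. The summed level of complex I had an r of 0.52 with a cell's total count and of -0.33 with its number of genes. The part of library and depth in the correlations was not tested. With the mean of the other members, Ndufa13 (0.74), Ndufb10 (0.70) and Ndufb3 (0.69) correlated most, and Ndufb9 (0.32) and Ndufs1 (0.34) were near the lower end. Outside the family, the genes most alike in pattern to the mean of the 38 were Zwint and Gabarapl1 (both 0.87), Hspa8 (0.86), and Gap43 and Hspbap1 (both 0.85). The summed levels of complex I and of complexes III, IV and ATP synthase had an r of 0.89, and their ratio had a median of 0.651 in 3xTg cells and 0.689 in WT cells.

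The other chain complexes and assembly genes were read beside the family. Of the 35 expressed genes of complexes III, IV and ATP synthase, 6 were higher and 0 lower by summed counts. Their median log2 ratio was 0.10. Over all 3988 expressed genes, 23.2% were higher and 27.7% lower, with a median of -0.03. These shares are the background of the other counts in this paragraph too. Of the 4 subunits of complex II, Sdha, its flavoprotein, was at 556 CPM in 3xTg, compared to 396 in WT, for a log2 ratio of 0.49, while the other 3 lay between -0.04 and 0.15. Of 11 assembly factors outside the Nduf family, 5 were expressed, of which Tmem70 (0.58) and Lyrm2 (0.33) were higher and Sfxn4 (-0.83) lower past the same limit. The 79 expressed cytosolic ribosomal protein genes had a median of 0.02, with 9 higher and 7 lower.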

How the data were processed

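The authors trimmed the reads, aligned them to the mm10 RefSeq transcriptome in Strand NGS and removed duplicate reads. They deposited estimated counts per gene, of which many are not whole (a median of 90.7% of an Nduf gene's nonzero values, at a tolerance of 0.001). RefSeq lists similarly named copies of Ndufs5, Ndufs6, Ndufb4, Ndufab1, Ndufa11 and Ndufa12, and how reads shared with copies were counted is not given in the sources used here. The authors also deposited log2 values normalized with DESeq2, used here as an alternative only. Libraries were poly-A selected and amplified by 28 PCR cycles, without molecular identifiers.

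Size factors were medians of ratios over 787 genes, and means over cells used log2(normalized count + 1). Sums, thinning and TMM factors (edgeR 4.0.16, R 4.3.3) used rounded counts in Python 3.11.15. Differences past 0.32 on the log2 scale were counted without a test, since each genotype is 1 sample. Calculations were tested on simulated data. All Nduf genes but 1 (below) could be named. The rule called for values by cell and run of core subunits, assembly factors, Ndufa4, Ndufa4l2, the 5 most abundant genes and the 5 highest and lowest ratios with the same sign by both measures. The members and lists were chosen with earlier results of these data known. Named results of 1 subunit gene, which is included in the counts and sums, are not reported here.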

Additional observations from a re-analysis of the deposited data

How the results depend on the processing

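Results by both measures depended on the runs. The median difference of means stayed above 0 under all alternatives, from 0.35 (cells with a count) to 1.13 (second runs). Its excess over all genes, however, was 0.05 between the first and 0.53 between the second runs. Here 23 and 38 genes were higher by means, compared to 52.3% and 58.2% of all genes. Between the first runs the median log2 ratio was -0.052 and the ratio of complex I's share of counts -0.090. By summed counts 10 genes were lower there (21.3% of all genes), and by means 8 were (15.5%). Between the second runs both ratios were 0.30, and the ratio of Ndufa6 was 0.048. By sums 16 genes were higher there (26.1% of all genes) and 1 lower (40.7%), and by means 0 were lower (24%). Without cells holding an other-cell marker the median was 0.058 and the share ratio 0.048. In cells with at least 5000 genes, chosen after seeing the data, the share ratio was 0.14, with 1 lower by sums and 0 by means. With sums of normalized counts 10 were higher and 1 lower, the median was 0.17 and the share ratio 0.15. Thinned cells gave 1 lower by sums and 0 by means, and a pseudocount of 10 and cells with a count alone gave 0 lower by means. Apart from the pairs of runs, no share over all genes is given beside the counts of this section. Those counts are therefore not a result about complex I relative to other genes. The causes were not tested. Leaving out each cell in turn gave 3 (without 3xTg cell 24) to 9 (without WT cell 20) higher and 1 to 2 lower by sums, medians of 0.083 to 0.16, share ratios of 0.049 to 0.14, and by means 28 to 33 higher, 0 to 1 lower and median differences of 0.62 to 0.81. No paired analysis was possible because the genotypes share no label numbers and no test was made.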
